A study of Mus musculus with 21 samples.

Results

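The 51 genes described here encode the nuclear parts of respiratory complexes II to V, cytochrome c and several factors that build complex IV, out of 20960 genes in the table. They were taken by symbol: Sdha, Sdhb, Sdhc, Sdhd, Cyc1 and Cycs, and every symbol that begins with Uqcr, with Atp5, or with Cox and a digit. The rule left out 8 rows named as pseudogenes and 8 rows of complex IV isoforms that differ between tissues (Cox4i1, Cox4i2, Cox6a1, Cox6a2, Cox7a1, Cox7a2, Cox8a and Cox8b). Of the members, 4 belong to complex II, 9 to complex III, 8 are subunits of complex IV, 9 are assembly factors of complex IV, 17 belong to complex V and 1 is cytochrome c. The name rule also took in 3 genes of another kind: Cox7a2l, which helps join complexes III and IV into supercomplexes, and Cox6c2 and Cox20b, which are close relatives of Cox6c and Cox20 by name.

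All mice were adult wild-type males. The 4 mice of the nanoplastics group were given polystyrene nanoplastics over 8 weeks, and the 3 mice of the control group were given distilled water. From every heart 3 pieces were taken, labelled as sections of the atria, right ventricle and left ventricle, and a bulk RNA library was made from each, which gave 21 libraries. Particle size, dose, route and exact age were details not stated in the labels.

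The respiratory chain passes electrons from NADH and succinate to oxygen and pumps protons across the inner mitochondrial membrane. Complex II oxidises succinate, complex III hands electrons from ubiquinol to cytochrome c, complex IV passes them to oxygen, and complex V, the ATP synthase, uses the proton gradient to make ATP. Heart muscle beats without pause and is packed with mitochondria, so transcripts of these subunits are among its abundant messages. All complexes but complex II also hold subunits encoded in the mitochondrial genome, which must be matched by the nuclear ones.

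Nuclear respiratory genes are known targets of the ETS-family factor GABP, of NRF1, of YY1 and of the estrogen-related receptors. RefSeq promoters on GRCm38.p6, from 250 bases before to 50 after the annotated start, were found for 39 of the 51 members, and both strands were searched for 5 short strings, those of these 4 kinds of factor and a TATA box. The ETS core CCGGAAG was present in 16 of the 39 members (41.0%), against 9.93% of 27025 genes with a promoter in the same table. The NRF1 core CGCATGCG was present in 7 members (17.95%, against 2.07% of all genes), the YY1 core AAGATGGC in 5 (12.8%, against 3.19%) and the receptor half-site AAGGTCA in 5 (12.8%, against 5.38%). The ETS and YY1 strings can share the letters AAG. The TATA box string TATAAA was present in 4 members (10.3%), against 15.7% of all genes. At least 1 of the 4 factor strings was found in 22 of the 39 members (56.4%, against 18.9% of all genes). The median GC content was 58.7% over the members' 43 promoters and 52.7% over all 32851. These are matches of letters, not measured binding.

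The ETS strings of 4 genes that passed the test in the nanoplastics comparison, and the NRF1 strings of cytochrome c and of a complex III gene that did not, are shown as windows of 30 bases on the gene's strand, with the matching string (or its reverse complement, CTTCCGG) in capitals. 
Cox6b1: tcctctcgcagCTTCCGGccagtcggaatt
Atp5h: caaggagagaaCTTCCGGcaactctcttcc
Uqcrh: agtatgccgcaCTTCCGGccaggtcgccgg
Atp5e: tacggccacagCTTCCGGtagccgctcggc
Cycs: ccatgctagctCGCATGCGcgcgcacaaac
Uqcr11: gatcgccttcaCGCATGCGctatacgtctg
All 6 lie on the minus strand of GRCm38.p6. The Cox6b1 window is chr7:30626124-30626153, where the string begins 28 bases before the annotated start. For Atp5h it is chr11:115419939-115419968 (38 bases before), for Uqcrh chr4:116075062-116075091 (10 bases before) and for Atp5e chr2:174464185-174464214 (102 bases before). The Cycs window is chr6:50566612-50566641 (61 bases before) and the Uqcr11 window chr10:80406808-80406837 (5 bases before). An ETS string was present in 5 of the 10 promoters of genes that passed the test, Atp5md being the fifth, and in 11 of the 28 promoters of tested members that did not. The NRF1 string was present in 0 and 7 of them.

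Libraries held between 413436 and 2439314 counts, except the right ventricular library of nanoplastics mouse 2, which held 4662, so that 1 count in it equals 214.5 CPM (a count scaled to a common library size). Values of that library under 643.5 CPM, its level for 3 counts, cannot be told from absence, and right ventricular results are given with and without it. Heart muscle markers were abundant in every library, with Tnni3 between 14158 and 21659 CPM. The libraries labelled atrial mostly held little atrial muscle RNA. Myl7, an atrial myosin light chain, had a median of 41.1 CPM in the atrial section and reached 14165 CPM in the atrial library of nanoplastics mouse 1. Its atrial marker sum was 63890 CPM there and between 29.3 and 3187 CPM in the other 6 atrial libraries. A comparison of atria with ventricles is therefore a comparison of labelled sections. Nothing in the labels says whether a treatment group shared a cage or a processing day.

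The members together took between 8.10% and 10.6% of the counts of a library. Summed over the sections of a mouse, their share was 8.46, 8.67 and 8.55% in the control mice and 9.75, 8.85, 9.13 and 9.50% in nanoplastics mice 1 to 4, each with an exact 95% binomial interval of at most 0.0364 percentage points to either side. All 4 nanoplastics mice were above all 3 control mice. Counting intervals cover counting error only, since reads copied from 1 molecule are not independent. Complex V held 3.65, 3.80 and 3.81% of counts in the control mice and 4.32, 3.97, 4.05 and 4.22% in the nanoplastics mice. Complex IV subunits held 1.92, 1.90 and 1.86% against 2.45, 2.03, 2.07 and 2.31%. Both complexes were higher in every nanoplastics mouse than in any control mouse. Complex III held 1.86, 1.92 and 1.84% against 2.03, 1.84, 1.96 and 1.99%, and complex II 0.483, 0.530 and 0.545% against 0.448, 0.505, 0.542 and 0.508%. The groups overlapped for both of these, and also for cytochrome c (0.320 to 0.383% in control mice, 0.317 to 0.350% in nanoplastics mice) and for the assembly factors (0.114 to 0.125% against 0.106 to 0.119%). In bulk tissue, fewer cells of a type and less RNA per cell cannot be told apart.

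**Figure D1:**
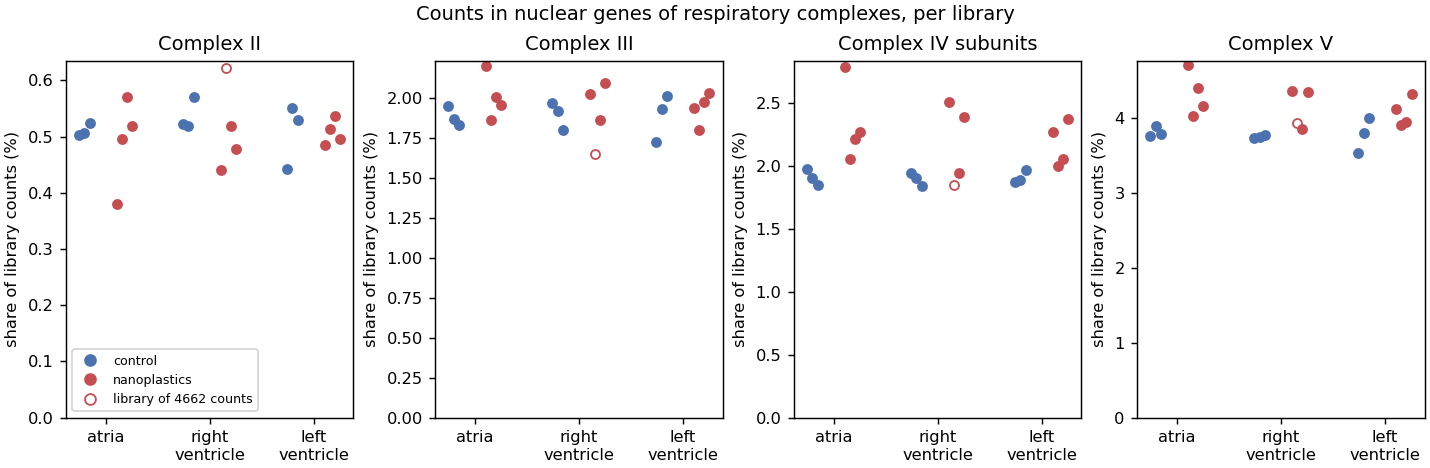
Share of a library's counts (%, axes from 0) in nuclear genes of complexes II, III, IV (subunits) and V, by section. Each point is a library, blue for control and red for nanoplastics mice, and the open point is the library of 4662 counts. Complex IV and V points of nanoplastics mice sit mostly above the control points, while complex II and III points overlap more.

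Per kilobase of the longest annotated transcript, mean levels over the 21 libraries spanned from 0.761 CPM per kb for Cox15, which makes heme A, to 7543 CPM per kb for Cox6b1, a small subunit on the outer face of complex IV. The next were Uqcr10 (6221 CPM per kb), Atp5h (5332), Atp5j (4928) and Uqcr11 (4562), all short accessory subunits of complex III or V. The catalytic and redox subunits were spread over this scale: Sdhb was at 2770, Uqcrfs1 at 1496, Atp5b at 923, Atp5a1 at 636, Cyc1 at 343 and Sdha at 134 CPM per kb. Other accessory subunits of complex V also lay low, such as Atp5d at 489.9 and Atp5l at 28.3 CPM per kb. Assembly factors ranged from 0.761 to 751 CPM per kb (Cox14). The libraries were barcoded at the 5′ end of the RNA, so it was not tested whether counts grow with length, and these levels are a rough order only.

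The first comparison asks which transcripts differ in the heart after nanoplastics, with the counts of a mouse's sections summed so that each mouse gives 1 value. Transcripts of 12 of the 49 members tested rose in the nanoplastics mice and 0 fell (edgeR's quasi-likelihood test, adjusted p under 0.05 over all 8485 genes tested). Over all genes tested, 1.79% rose. Of the 12, 7 encode complex V subunits, 3 complex IV subunits and 2 complex III subunits, and their rises lay between 0.45 and 0.59 on the log2 scale. The median log2 change was 0.35 over the 49 members and -0.03 over all genes. Cox7b2 and Cox20b had too few counts to be tested.

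Complex IV, cytochrome c oxidase, had 3 of 7 tested subunits that rose and none that fell. Cox6b1 was at 3648, 3746 and 3520 TMM-scaled CPM in the control mice and at 6012, 5262, 5142 and 5301 in the nanoplastics mice. The groups stood well apart, with mouse 1 highest. Its mean was 3638 ± 113 (SD, n = 3) against 5429 ± 394 (SD, n = 4), a log2 change of 0.58 (SE 0.11, adjusted p = 0.0183). Cox7b, a small membrane subunit, was at 3069, 2564 and 2387 CPM in the control mice and at 4635, 3548, 3573 and 3605 in the nanoplastics mice (log2 change 0.52, SE 0.13, adjusted p = 0.0390). Nanoplastics mouse 1 was far above the other 3, which lay close together. Cox5b, a zinc-binding subunit on the matrix side, was at 2119, 2088 and 2074 CPM against 3479, 2633, 2649 and 3164 (log2 change 0.51, SE 0.12, adjusted p = 0.0370). The control mice differed by very little, and every nanoplastics mouse was higher. Of the other subunits, Cox7c (0.48, adjusted p = 0.0531) and Cox6c (0.45, adjusted p = 0.0531) were just outside the threshold with groups that did not overlap. Cox5a varied within the nanoplastics group, from 1942 to 3325 CPM, and did not pass (0.24, adjusted p = 0.524). Cox6b2, a testis isoform, was at 1.62 to 5.70 CPM and did not pass.

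In complex V, 7 of 17 members rose and all 17 had a positive change. They are described by place in the enzyme, a grouping made after the values were known. In the central stalk, the rotor that couples proton flow to catalysis, 2 of 3 members rose. Atp5e, the epsilon subunit, was at 2420, 1939 and 1999 CPM in the control mice and at 3978, 2697, 2911 and 3179 in the nanoplastics mice (log2 change 0.59, SE 0.14, adjusted p = 0.0307). Atp5c1, the gamma subunit, was at 3202, 2916 and 2894 CPM against 4473, 4166, 4109 and 3792 (0.46, SE 0.11, adjusted p = 0.0374). Neither gene's groups overlapped. The third, Atp5d (delta), had a change of 0.36 (adjusted p = 0.139).

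In the peripheral stalk, the stator that keeps the catalytic head from turning, 2 of 4 members rose. Atp5h, subunit d, was at 3821, 3609 and 3572 CPM in the control mice and at 5698, 5250, 5086 and 4955 in the nanoplastics mice, means of 3667 ± 134 (SD, n = 3) and 5247 ± 324 (SD, n = 4). Its log2 change was 0.51 (SE 0.11, adjusted p = 0.0250). Atp5o_2, the table's row for a gene named as the oligomycin-sensitivity subunit, was at 755, 742 and 751 CPM against 1185, 1069, 1012 and 1042 (0.52, SE 0.12, adjusted p = 0.0307). Its control mice were nearly equal, and the gap to the lowest nanoplastics mouse was many times their range. Atp5j (0.37, adjusted p = 0.0830) and Atp5pb (0.18, adjusted p = 0.479) did not pass.

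Among the 5 small membrane subunits, 3 rose and all 5 had groups that did not overlap. Atp5mpl was at 1422, 1324 and 1163 CPM in the control mice and at 2276, 1779, 1749 and 1768 in the nanoplastics mice (0.54, SE 0.13, adjusted p = 0.0361). Atp5j2, subunit f, was at 3073, 2961 and 2505 CPM against 4244, 3888, 3922 and 3724 (0.47, SE 0.12, adjusted p = 0.0383). Atp5md, which takes part in holding synthase dimers together, was at 1898, 1561 and 1511 CPM against 2700, 2249, 2263 and 2144 (0.50, SE 0.13, adjusted p = 0.0438). In all 3 genes nanoplastics mouse 1 was the highest sample. Atp5k (0.49, adjusted p = 0.0531) and Atp5l (0.48, adjusted p = 0.0581) were just outside the threshold. The 3 genes of the proton-carrying c-ring, which encode the same mature protein, did not pass: Atp5g2 had a change of 0.49 (adjusted p = 0.0717), Atp5g1 of 0.35 (adjusted p = 0.0791) and Atp5g3 of 0.25 (adjusted p = 0.424). Atp5g1 had the highest mean CPM of all members over the 21 libraries (5573 before TMM scaling), and was at 4522 to 5044 in control and 5948 to 6446 in nanoplastics mice. The catalytic subunits gave values near those of the median gene. Atp5a1 (alpha) was at 1309, 1609 and 2021 CPM in the control mice and at 1551, 1511, 1696 and 1986 in the nanoplastics mice (0.03, SE 0.14, adjusted p = 0.936), and Atp5b (beta) had a change of 0.09 (SE 0.12, adjusted p = 0.766). Both overlapped fully between groups.

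Complex III had 2 of 9 members that rose, both small subunits. Uqcrh, the hinge protein that helps dock cytochrome c, was at 2432, 2190 and 1970 CPM in the control mice and at 3758, 3047, 2997 and 3082 in the nanoplastics mice (0.55, SE 0.12, adjusted p = 0.0293). Uqcrb, which lines a ubiquinone site, was at 2196, 2201 and 1972 CPM against 3198, 2850, 2861 and 2726 (0.45, SE 0.12, adjusted p = 0.0433). All 5 small subunits had groups that did not overlap, the other 3 being Uqcr10 (0.39, adjusted p = 0.0808), Uqcrq (0.38, adjusted p = 0.0829) and Uqcr11 (0.25, adjusted p = 0.259). Of the redox and core proteins none passed, and 3 of 4 had a negative value. Cyc1, the cytochrome c1 that passes electrons to cytochrome c, was at 587, 706 and 627 CPM in the control mice and at 522, 492, 566 and 578 in the nanoplastics mice. It was the 1 member whose nanoplastics mice all lay below the controls, with a log2 change of -0.25 (SE 0.13, adjusted p = 0.304) that did not pass. Uqcrfs1, the Rieske iron-sulfur protein, had a change of -0.02 (adjusted p = 0.961), and the core proteins Uqcrc1 and Uqcrc2 had changes of -0.16 (adjusted p = 0.572) and 0.21 (adjusted p = 0.385).

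None of the 4 members of complex II passed. Sdhb, the iron-sulfur subunit and the most abundant of them, was at 3120, 3079 and 2908 CPM in the control mice and at 3523, 3665, 3949 and 3552 in the nanoplastics mice (0.27, SE 0.11, adjusted p = 0.185). Its groups did not overlap. Sdha, the flavoprotein that oxidises succinate, was at 321, 343 and 505 CPM against 290, 318, 388 and 453 (-0.11, SE 0.17, adjusted p = 0.804), and its groups overlapped. The membrane anchors Sdhd and Sdhc had changes of 0.12 (adjusted p = 0.661) and 0.00 (SE 0.12, adjusted p = 0.997). Cytochrome c itself, Cycs, was at 3715, 3133 and 2783 CPM in the control mice and at 3852, 3750, 3684 and 3281 in the nanoplastics mice, with overlapping groups (0.18, SE 0.12, adjusted p = 0.474).

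None of the 9 complex IV assembly factors passed, and their values went both ways. The copper chaperone Cox17 (0.46, adjusted p = 0.0682), Cox16 (0.50, adjusted p = 0.164) and Cox20 (0.35, adjusted p = 0.180), which takes part in maturing the second mitochondrial subunit, had positive changes with groups that did not overlap, as had Cox19 (0.27, adjusted p = 0.307). Cox11, which delivers copper, was at 21.2, 13.5 and 10.6 CPM in the control mice and at 12.0, 11.5, 8.34 and 8.83 in the nanoplastics mice (-0.62, SE 0.24, adjusted p = 0.165). The groups overlapped because 1 control mouse was low. Cox18 (-0.48, adjusted p = 0.351), Cox15 (-0.36, adjusted p = 0.685) and Cox10 (-0.32, adjusted p = 0.438) also had negative changes, at 30.8 CPM or less in every mouse, and Cox14 was at -0.04. Of the 3 genes of another kind, Cox7a2l had a change of 0.17 (adjusted p = 0.544) and Cox6c2 of -0.09 (adjusted p = 0.929).

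**Figure D2:**
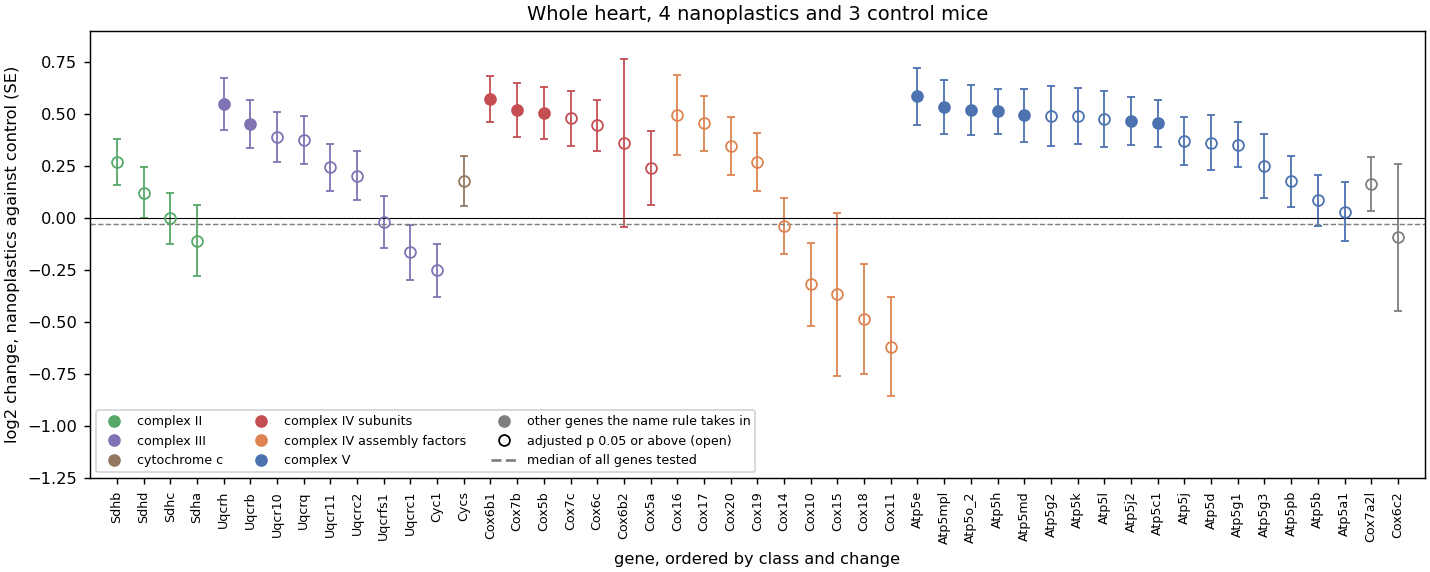
Log2 change (nanoplastics against control) with its SE for the 49 members tested in the whole heart, grouped and coloured by class. Filled points passed at an adjusted p under 0.05, and the dashed line is the median of all genes (-0.03). The filled points are 7 of complex V, 3 of complex IV and 2 of complex III, between 0.45 and 0.59.

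**Figure D3:**
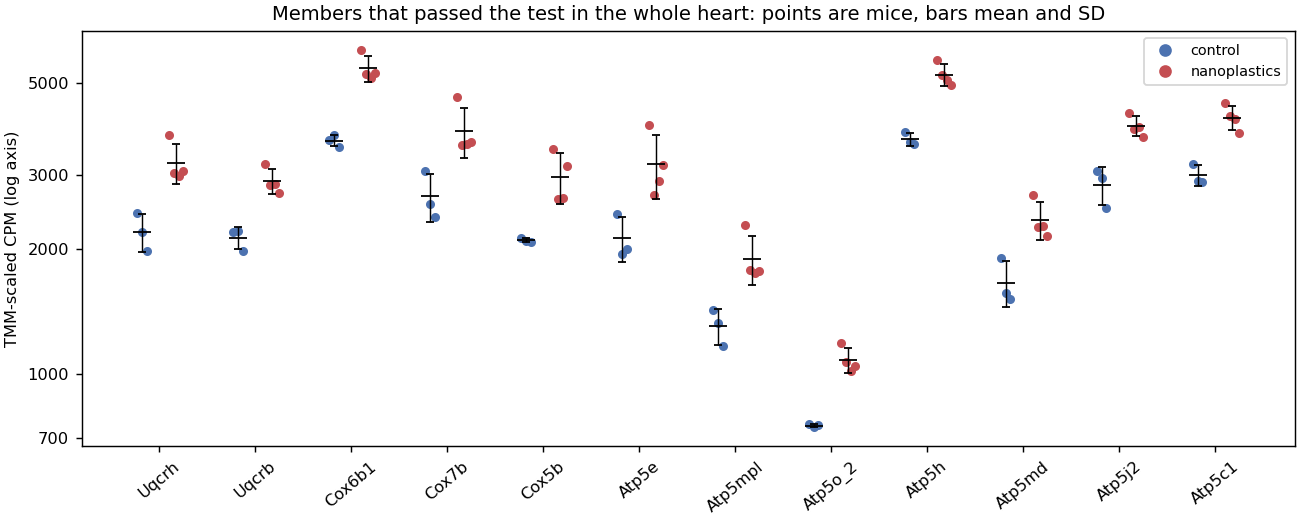
TMM-scaled CPM (log axis) in each mouse for the 12 members that passed in the whole heart, blue for 3 control and red for 4 nanoplastics mice, with mean and SD. For all 12, every nanoplastics mouse lies above every control mouse.

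In 29 of the 49 members every nanoplastics mouse was above every control mouse, against 7.94% of all genes tested, and in 1 (Cyc1) every one was below. An unadjusted p under 0.05 was reached by 28 members, 27 of them higher in nanoplastics mice, against 9.15% of all genes tested that were higher at that p. The number of members that rose in the adjusted test depended on single mice, as did the share of all genes that rose, given in brackets. It was 0 without control mouse 2 (0.0%), 0 without control mouse 3 (0.133%) and 0 without nanoplastics mouse 2 (0.232%). Without nanoplastics mouse 1 it was 2 (0.29%) and without nanoplastics mouse 4 it was 6 (1.29%). Without nanoplastics mouse 3 it was 9 (1.59%) and without control mouse 1 it was 16 (1.89%). The 12 kept a positive sign in each of these fits. With DESeq2 22 rose (3.35% of all genes did), and with the 21 libraries fitted separately in limma, with the section as covariate and the mouse as random effect, 2 rose (Atp5l and Cox17; 2.41% of all genes did), neither among the 12. Scaling by library totals alone lowered the median of all genes from -0.03 to -0.27, and then 2 members rose (Cox6b1 and Uqcrh; 0.507% of all genes did) while Cox11 (-0.84), Cyc1 (-0.50) and Uqcrc1 (-0.40) fell (8.89% of all genes did). On that scale the median was 0.22 in complex V and 0.24 in complex IV subunits, but -0.19 in complex II, and complex III stood at 0.00.

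Other measures moved with the treatment or varied between mice. Because libraries differed in size, the atria gave 19.0, 20.2 and 42.4% of a control mouse's summed counts and 27.6, 55.2, 30.4 and 62.5% of a nanoplastics mouse's. The right ventricle gave 36.9, 36.5 and 44.0% in the control mice and 17.1, 0.20, 27.9 and 12.0% in the nanoplastics mice. Its part was thus smaller in every nanoplastics mouse than in any control mouse, so the mix of sections in the summed hearts differed with treatment. The median annotated length per count was 1697, 1744 and 1791 nt in the control mice and 1473, 1556, 1599 and 1549 nt in the nanoplastics mice, so that shorter transcripts took more of the counts in every nanoplastics mouse. Over all genes, those of at most 1000 nt had a median log2 change of 0.35 and longer ones of -0.05. Among the members, the 18 of at most 1000 nt had a median of 0.47, and 7 of them rose, against 13.8% of the 726 genes of that length. The 31 longer members had a median of 0.21, and 5 rose, against 0.659% of the 7735 longer genes. The 5 were Cox7b (1001 nt, at the edge of the cut), Atp5e (1697 nt), Atp5c1 (1735 nt), Atp5j2 (2101 nt) and Atp5md (2733 nt). The share that rose over all genes thus differed widely by length, and the 1.79% given above is not the share for short genes. The 7.94% and 9.15% given above are likewise shares over genes of all lengths, and they were not split by length. Spearman's rho of length with change was -0.30 across the 49 members and -0.26 across 8461 genes with a length, as a description across genes that share the same 7 mice. When the trend of change on length was removed in the fit, 6 members rose (0.483% of all genes did). These were Atp5e (0.57), Atp5md (0.55), Atp5j2 (0.49) and Atp5c1 (0.44) of the 12, together with Atp5g1 and Cox6c. Cox6b1 was then at 0.24 (adjusted p = 0.183), Uqcrh at 0.30 (adjusted p = 0.124) and Atp5h at 0.28 (adjusted p = 0.115). The length used is that of the longest annotated transcript, not of the RNA present. Both the split at 1000 nt and the fit without the trend depend on it, as for Atp5g1 (4715 nt) and Cox6c (3038 nt). Whether members with long RNA rise beyond the length trend was therefore not tested.

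**Figure D4:**
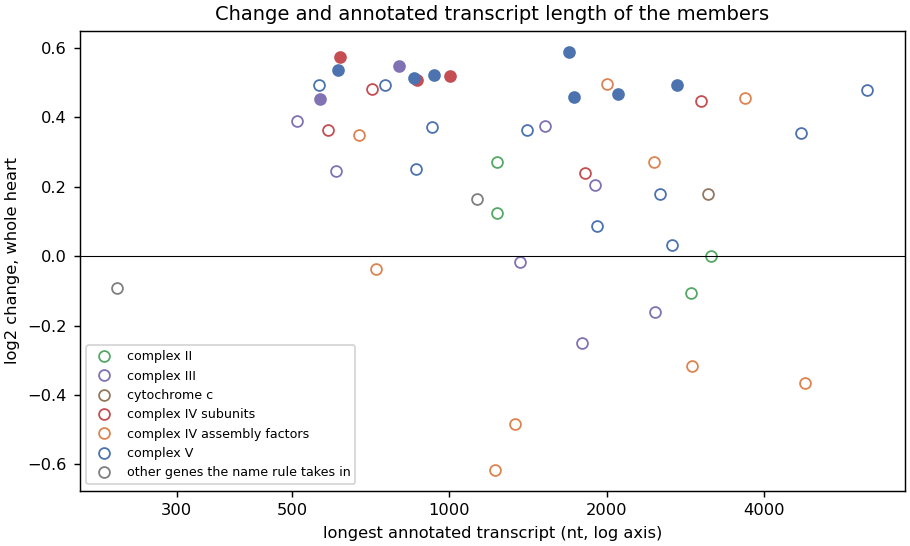
Log2 change in the whole heart against the length of the longest annotated transcript (nt, log axis) for the 49 members, coloured by class and filled where the test was passed. The 18 members of at most 1000 nt have a median of 0.47 and the 31 longer ones of 0.21, and complex V genes of 1697 to 2733 nt lie among the filled points.

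Heart muscle markers also moved. Of 15, 14 had a positive change with a median of 0.23, and 1 rose: Tnni3, cardiac troponin I (0.53, adjusted p = 0.0183). Their summed level was 81634 to 100090 CPM in the control mice and 87569 to 105080 CPM in the nanoplastics mice. Of the 2 ventricular markers tested, Myl2, a myosin light chain, rose (0.54, adjusted p = 0.0250), while Irx4 was at -0.29 (adjusted p = 0.725). A rise was also called for the fibroblast gene Dcn (0.55, adjusted p = 0.0466), with all 9 fibroblast markers positive, at a summed level of 1278 to 1533 CPM in control and 1449 to 1995 CPM in nanoplastics mice. Of the endothelial (8), smooth muscle (5), macrophage (8), erythroid (4) and adipocyte (2) markers tested none passed, and skeletal muscle markers were too low to be tested. Atrial marker sums were 198 to 324 CPM in control mice and 208 to 17701 CPM in nanoplastics mice, and no atrial marker passed. Without the atrial library of nanoplastics mouse 1, 15 members rose (1.86% of all genes did), and from the ventricles alone 10 (1.48%). In the sum of the ventricles too, the right ventricle gave a smaller part in every nanoplastics mouse than in any control mouse. The part of length, section mix, muscle content and fibroblast content in the result was not tested.

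The remaining parts of the same machinery were read from lists. Of 37 nuclear complex I subunits tested, 7 rose and 0 fell, with a median of 0.35. The smallest p-values were those of Ndufv3 (0.67, adjusted p = 0.0183), Ndufa3 (0.66, adjusted p = 0.0183), Ndufa7 (0.58, adjusted p = 0.0292) and Ndufb4 (0.60, adjusted p = 0.0296), all supernumerary subunits. Of the 6 mitochondrially encoded partners in complexes III to V, 3 were tested, and the others had too few counts. None of those tested was of complex V. These 3 did not pass: mt-Cytb of complex III had a change of 0.31 (adjusted p = 0.104), mt-Co1 of complex IV of 0.02 (adjusted p = 0.972) and mt-Co2 of -0.33 (adjusted p = 0.725). Of 30 further assembly factors of complexes II to V, 0 passed, with a median of 0.06, and of 14 tricarboxylic acid cycle enzymes 0 passed, with a median of 0.02. Among 14 tested regulators of respiratory genes, Ppara, a receptor that drives fatty acid oxidation genes, fell (-1.31, SE 0.24, adjusted p = 0.0183). The regulators whose motifs were searched did not pass: Gabpa, the DNA-binding part of GABP, was at -0.39 (SE 0.18, adjusted p = 0.257), Esrra at -0.74 (SE 0.24, adjusted p = 0.107), Nrf1 at 0.01 (SE 0.41, adjusted p = 0.991) and Yy1 at -0.17 (adjusted p = 0.751). The coactivator Ppargc1a was at -0.13 (adjusted p = 0.752).

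The next comparisons ask the same within each section. They use the libraries that were summed above, so they are no independent repeat. No member passed in any section, where 45 were tested and Cox15, Cox18, Cox6b2, Cox6c2, Cox7b2 and Cox20b had too few counts. Of all genes tested, 0.0% rose in the atria, 0.601% in right and 0.0368% in left ventricles. In edgeR's test without adjustment, 674 genes of the atria had a p under 0.05. The member median was 0.37 in atria, 0.25 for the right ventricle and 0.26 for the left, against -0.03, -0.01 and -0.02 over all genes tested there. The 12 members that rose in the summed hearts were positive in every section, from 0.42 to 0.62 in atria, 0.22 to 0.66 in right ventricles and 0.35 to 0.48 in left ventricles. Their adjusted p lay between 0.305 and 0.348, 0.502 and 0.860, and 0.138 and 0.202.

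In the atria, 21 of 45 members had an unadjusted p under 0.05, all higher in nanoplastics (6.47% of all genes were), and in 21 every nanoplastics library was above every control library (6.98% of all genes tested). Uqcrh was at 2360, 2257 and 2010 CPM in the control and at 4253, 3053, 3098 and 3089 in the nanoplastics atria (0.60, SE 0.19, adjusted p = 0.305). Cox6b1 was at 3819, 4151 and 3649 CPM against 6098, 5391, 5313 and 5473 (0.52, SE 0.17, adjusted p = 0.305). In both, the library with much atrial muscle RNA, that of mouse 1, was the highest. That library also had the highest member share of all 21, 10.6%. By class, the atrial median was 0.51 in complex IV subunits, 0.44 in complex V, 0.20 in complex III and 0.09 in complex II.

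In the left ventricle, 23 members had an unadjusted p under 0.05, of which 21 were higher (6.73% of all genes were), and 19 had all nanoplastics libraries above all controls (6.42% of all genes). Cox6b1 was at 3466, 3593 and 4189 CPM in the control and at 5529, 5092, 5037 and 5208 in the nanoplastics libraries (0.47, SE 0.12, adjusted p = 0.138). Atp5o_2 was at 753, 730 and 813 CPM against 1200, 1061, 972 and 1053 (0.48, SE 0.13, adjusted p = 0.138). The left ventricle also had 2 members with all nanoplastics libraries below all controls, both of complex III. Cyc1 was at 568, 732 and 611 CPM against 476, 487, 529 and 489 (-0.37, SE 0.14, adjusted p = 0.206), and Uqcrc1 was at 520, 619 and 531 CPM against 416, 438, 492 and 476 (-0.30, SE 0.14, adjusted p = 0.325). Neither passed.

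In the right ventricle the library of 4662 counts was kept in the first fit, and 3 of 45 members had an unadjusted p under 0.05, which is below the 13.5% of all genes tested. Its member share was 8.45% (exact 95% interval 7.67 to 9.29%), so it could not be placed above or below the control libraries, at 8.49 to 8.73%. Cox6b1 was at 4261, 4232 and 3885 CPM in the control libraries and at 7645, 5694 and 6762 in those of nanoplastics mice 1, 3 and 4, while the small library gave 2092 CPM (0.47, SE 0.45, adjusted p = 0.702). That value rests on 22 counts, or 4719 CPM before TMM scaling, and on a scaling divisor of 2.26 estimated from this library, so its place against the controls depends on the scaling. Without that library 3 members rose (1.12% of all genes did), Atp5e (0.83, SE 0.18, adjusted p = 0.0279), Atp5mpl (0.70, adjusted p = 0.0430) and Cox6b1 (0.66, adjusted p = 0.0442), and the member median was 0.32. In 25 members all 3 remaining nanoplastics libraries were above all controls (12.9% of all genes), and in Cox11 all 3 were below. The smallest p of the right ventricle belonged to assembly factors of low level. Cox11 was at 19.6, 15.5 and 15.8 CPM in the control libraries and at 8.11, 2.99 and 8.27 in those of mice 1, 3 and 4 (-1.57, SE 0.49, adjusted p = 0.0731), and Cox16, which joins copper delivery to complex IV, was at 13.9, 13.2 and 12.0 CPM against 29.7, 25.4 and 22.1 (0.94, SE 0.34, adjusted p = 0.136). Both were at 0 in the small library, which its level for 3 counts makes uninformative. Before TMM scaling, 3 counts equal 5.7, 3.7 and 6.8 CPM in the right ventricular libraries of nanoplastics mice 1, 3 and 4. The Cox11 values of these mice therefore rest on few counts. Cox11 passed when libraries were scaled by DESeq2's size factors in edgeR (-1.66, adjusted p = 0.0495) or by totals alone (-1.85, adjusted p = 0.0316). Of all genes, 1.07% and 4.97% fell under these 2 scalings.

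**Figure D5:**
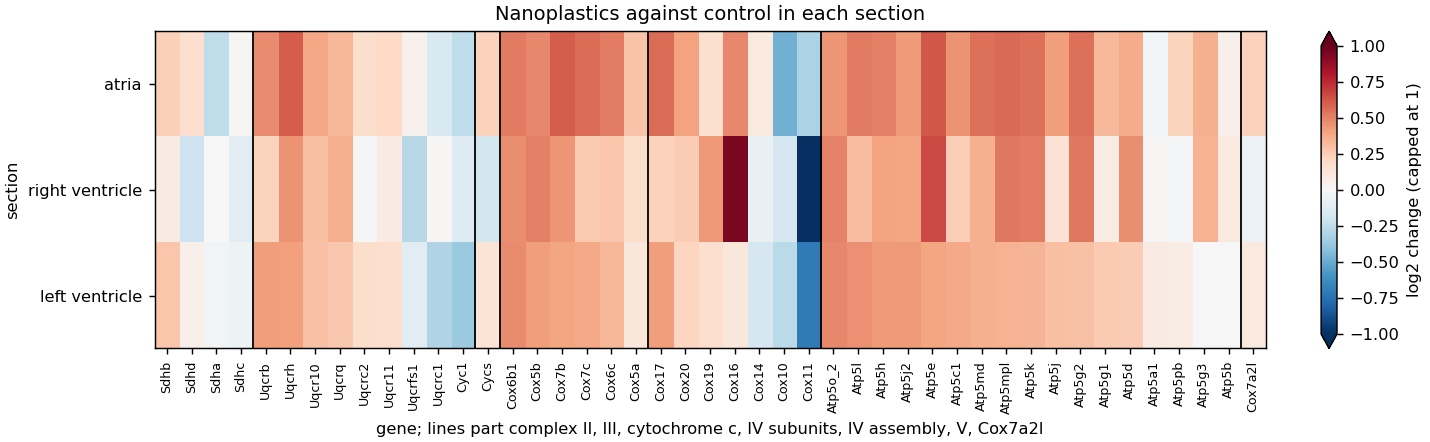
Log2 change (colour, capped at 1 to either side) of the 45 members tested in the atria, right ventricle and left ventricle, ordered by class. Most complex IV and V genes are red in all 3 rows, and Cyc1 is blue in all 3. Cox16 and Cox11, both of low level, are at their extremes in the right ventricle (0.94 and -1.57).

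Whether the nanoplastics effect differed between sections was tested directly. No member passed for the atria against the left ventricle (0.0% of all 6269 genes passed) or for the right against the left ventricle (also 0.0%). In these tests by edgeR, 0 and 1 members had an unadjusted p under 0.05 (5.5% and 3.0% of all genes had), the 1 being Cox16, with an effect higher by 0.89 in the right ventricle (SE 0.44, adjusted p = 1.00). The median SE of the members' difference was 0.32 in both tests, so a difference of the size of the effect itself was not detectable here.

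Levels in the sections themselves were compared within mice, over both treatments. No member passed between atria and left ventricle (0.155% of all genes did), atria and right ventricle (0.606%) or right and left ventricle (0.02%). The members' differences lay between -0.25 and 0.28, between -0.04 and 0.19, and between -0.34 and 0.15 on the log2 scale. Between atria and left ventricle 4 of 45 members had an unadjusted p under 0.05, all lower in the atria, a share below that of all genes (12.6%). Between atria and right ventricle 0 had (7.25% of all genes) and between right and left ventricle 0 (5.21%). The values of the 4 are given as a description. Atp5pb, subunit b of the peripheral stalk, was lower by 0.24 in atria (SE 0.09, adjusted p = 0.261): in control mice it was at 2301, 1699 and 1949 CPM in the atria and at 2956, 2205 and 2457 in the left ventricle. Each control mouse had less in its atria, while nanoplastics mouse 4 had 2438 in atria and 2162 in left ventricle. The others were Uqcrc2 (-0.25, adjusted p = 0.284), Cycs (-0.22, adjusted p = 0.346) and Sdhd (-0.22, adjusted p = 0.375).

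Some rows are uncertain because it is not stated how reads shared with near-identical copies were counted. The table holds pseudogene rows for Uqcrh (6 and 11 counts over all libraries), Atp5c1 (5), Atp5k (3), Atp5pb (376) and Atp5l (156 and 1799), and 1 named Atp5l2-ps (381). Those with Atp5l in the name compare with 4723 counts in the row of Atp5l, and the others are small beside 27250 to 90265 counts.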

How the data were processed

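The authors deposited raw counts per gene symbol for 21 libraries of 7 mouse hearts. Per the labels' protocols, RNA was captured on oligo-dT beads, barcoded by well at the 5′ end and pooled before amplification (Singleron AccuraCode). The submitters' processing notes name STAR. For build, annotation, counting program, strand and use of molecular identifiers, nothing was stated. All columns were matched to samples. None of the 27 pairs of libraries of the same group and section agreed within sampling noise.

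Analysis used R 4.3.3, edgeR 4.0.16, limma 3.58.1 and DESeq2 1.42.0. Genes passing filterByExpr were TMM-scaled (trimmed mean of M-values) and tested over the whole table by robust quasi-likelihood, with Benjamini-Hochberg adjustment at 0.05. The 3 sections of a mouse were summed for the whole heart. Sections were compared with the mouse as block, since their libraries share an animal by title. Replicate numbers do not pair mice across treatments (correlations of 0.068, 0.09 and -0.043). P-values of the treatment comparisons measure the spread between these mice. Those of tests with the mouse as block, including the tests of effects between sections, measure the spread within mice.

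On simulated counts, 75% of 2-fold and 95% of 4-fold changes were recovered in the whole heart (8370 genes). Recovery of 2-fold changes was 49% in the atria, 54% in the right and 58% in the left ventricle, and 88 to 93% between sections. For the nanoplastics effect against that in the left ventricle it was 26% (atria) and 24% (right ventricle). Changes of the size seen here are smaller than those simulated. Lengths came from GENCODE M21 and promoters from RefSeq GRCm38.p6. Named genes were those called, the most abundant and smallest-p members of each class, members of opposite sign and fixed regulators. Members and lists were chosen with earlier results of these data known.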

Additional observations from a re-analysis of the deposited data

Results flagged for a closer look

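In groups of 4, a sample was picked out when its gap to the nearest other sample, divided by the group's range, was above Dixon's 95% critical value. This was examined in 36 groups: the nanoplastics samples of the 12 members that passed in the whole heart, in the summed hearts, the atria and the left ventricles. The right ventricles were left out because of the library of 4662 counts. Chance picks out about 1 in 20 independent groups. These groups are not independent, since the summed hearts contain the atria and the genes share the same 4 mice, so the 5 picked out here, all in 1 animal, cannot be set against that rate. In the summed heart of nanoplastics mouse 1, Atp5mpl was at 2276 CPM, with the other 3 mice at 1749 to 1779, Cox7b was at 4635 CPM (the others 3548 to 3605), and Uqcrh was at 3758 CPM (the others 2997 to 3082). In the atria of the same mouse, Atp5mpl was at 2572 CPM (the others 1798 to 1848) and Uqcrh at 4253 CPM (the others 3053 to 3098). That atrial library had an atrial marker sum of 63890 CPM and the lowest mitochondrially encoded share of all 21, 15.6%. The part of its tissue content in these values was not tested.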

How the results depend on the processing

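The count of members that passed in the whole heart, 12, was within 1.5 times under 7 of 17 alternatives and not under 10. It was 5 with library totals alone: 2 higher and 3 lower (0.507% and 8.89% of all genes). It was 22 with DESeq2 (which called 3.35% of all genes higher, against 1.79%) and 6 with the length trend removed (0.483%). With section as covariate and mouse as random effect in limma voom it was 2 (2.41%), Atp5l and Cox17, neither among the 12. With 1 mouse left out it ran from 0 (0.0 to 0.232% of all genes higher) to 16 (1.89%). The 12 were positive under all 17 and kept their call under 6 (Uqcrb) to 12 (Cox6b1) of them. With the replicate block, which sets mice of equal number against each other, it was 20 in the whole heart (3.13% of all genes higher), 3 in the atria (1.71%) and 0 in either ventricle. The numbers share no animal, and 1 of 3 control mice correlated best with its own number, which cannot tell whether mice were matched.

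DESeq2 gave 15 in the atria (1.69% of all genes higher) and 9 in the left ventricle (1.32%), where edgeR gave 0 members, with 0.0% and 0.0368% of all genes. In the right ventricle, size factors from DESeq2 in edgeR gave 1 (1.07% of all genes lower) and totals alone gave 1 (4.97%), both Cox11, lower. With 1 mouse left out the count there ran from 0 to 3, the 3 being without nanoplastics mouse 2 (1.12% of all genes higher). The comparisons of sections and of effects between sections gave 0 under every alternative run. The cause of these shifts was not tested. Among the 12 members with a call, none reversed.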
